A study of Homo sapiens with 6 samples.

Results

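The miR-191 and miR-425 hairpins give 4 mature miRNAs, hsa-miR-191-5p, hsa-miR-191-3p, hsa-miR-425-5p and hsa-miR-425-3p, and all 4 were among the 787 mature miRNAs of the deposited table. They were chosen by name, as every entry called miR-191 or miR-425. The family was selected on the normalized counts of these same libraries, in that its values were already known when it was put forward. Its levels and fold changes are therefore given as a description, with no p for a single member, and counts of members called are only set beside the share over all miRNAs. The small RNA libraries were made from A549, a human cell line from a lung adenocarcinoma that is known to lack functional SMARCA4, an ATPase of the SWI/SNF chromatin remodelling complex. The SMARCA4 group was transfected with pcDNA4-SMARCA4, a plasmid that carries the gene, and the empty vector group with pcDNA4 alone, both with a lipid reagent, and both were taken 48 h later. There were 3 libraries per group, independent biological replicates according to the design text. Transfection was transient in a pool of cells of 1 line, and the share of cells that took up plasmid is not given in the labels.

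A miRNA hairpin is cut by DROSHA and then DICER into a duplex of its 5p and 3p arms. Usually one arm is loaded into an Argonaute protein and represses mRNAs that pair with its seed, while most of the other arm is degraded. miR-191 and miR-425 are neighbouring hairpins in an intron of the DALRD3 gene and are transcribed with it. miR-191-5p is abundant in many human tissues and is widely used as a reference in quantitative PCR. miR-425-5p is the main arm of its hairpin in most human tissues.

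On chromosome 3 of GRCh38 both hairpins are read from the minus strand, MIR425 at 49020148 to 49020234 and MIR191 at 49020618 to 49020709, with 383 bases between them. In GENCODE 29 both fall in introns of all 4 DALRD3 transcripts that span them (DALRD3, 49015488 to 49022293, same strand). DALRD3 encodes a protein that takes part in tRNA methylation. MIR191 also lies inside an intron of NDUFAF3, a gene for an assembly factor of respiratory complex I, on the opposite strand (49020459 to 49023495), and MIR425 lies outside it. The RefSeq miRNA sequences on GRCh38.p14 are shown to make the arms and their seeds visible, with the seed (bases 2 to 8) in capitals.
miR-191-5p: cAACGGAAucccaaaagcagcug
miR-191-3p: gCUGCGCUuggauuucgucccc
miR-425-3p: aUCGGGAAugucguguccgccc
The MIR191 hairpin is shown to place its abundant 5p arm and its scarce 3p arm, whose ratio is compared further on, with both mature arms in capitals.
MIR191 hairpin: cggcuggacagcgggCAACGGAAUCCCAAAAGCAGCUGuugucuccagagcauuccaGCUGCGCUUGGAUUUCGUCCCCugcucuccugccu
The 3 mature sequences have 3 different seeds, and 0 other human miRNAs of the RefSeq table share any of them. The RefSeq table had no mature entry for miR-425-5p, so its sequence is not shown and its seed was not compared. The table matched 689 of the 787 listed names.

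Values are normalized read counts, that is, reads per miRNA multiplied by 1 factor per library. The recovered reads per library were between 701885 and 7274329 in the SMARCA4 group and between 881370 and 1079944 in the empty vector group. The highest, SMARCA4 replicate 2, was 8.33 times the mean of the other 5 libraries. Its normalized counts also had the largest total, 3073320, against 1661870 to 1835230 in the other 5, so values on this scale run higher in that library. Of the markers of epithelial cells, 6 of 7 were listed, and their summed level was between 425.02 and 623.32 in SMARCA4 libraries and between 355.64 and 676.94 in empty vector libraries, with miR-205-5p at 0 or not listed. limma, described below, called 2 of the 6, which were higher with SMARCA4, miR-141-3p (182 ± 30.3 in SMARCA4 cells and 31.4 ± 10.8 in empty vector cells, SD, n = 3 each) and miR-203a-3p (39.7 ± 2.97 and 4.79 ± 0.97 in the same order, SD, n = 3 each). miR-200b-3p, which was not called, was at 190 ± 51.8 in SMARCA4 cells and 422 ± 123 in empty vector cells (SD, n = 3 each). Also not called were miR-200a-3p (log2 fold change 1.27), miR-429 (0.66) and miR-200c-3p (−0.06). Over all 637 miRNAs tested, limma called 9 (1.41%). The 3 muscle markers, the liver marker miR-122-5p and the neuron marker miR-124-3p were at 0 or not listed, as were miR-451a, miR-144-3p, miR-142-3p and miR-223-3p of 7 blood markers. The summed blood markers were between 7962 and 14458 in SMARCA4 libraries and between 5621 and 7213 in empty vector libraries, with miR-486-5p making up most of the sum. The listed neuron marker, miR-9-5p, was between 146 and 427 in SMARCA4 libraries and between 140 and 146 in empty vector libraries. The summed fibroblast or mesenchymal markers were between 31.4 and 122 in SMARCA4 libraries and between 22.6 and 51.3 in empty vector libraries, with miR-199a-3p and miR-214-3p at 0 or not listed. The part of these markers in the results was not tested. SMARCA4 mRNA was not analysed here.

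miR-191-5p was the most abundant member, and its level overlapped between the groups. It stood at 30200, 43011 and 35501 normalized counts in SMARCA4 replicates 1, 2 and 3, against 28985, 18157 and 40813 in empty vector replicates 1, 2 and 3. In such bulk libraries a lower level in every cell and fewer cells with the miRNA cannot be told apart. On this scale empty vector replicate 2 was the lowest of the 6 libraries and SMARCA4 replicate 2 the highest. As a share of reads, SMARCA4 replicate 2 (1.40%) lay below every library but empty vector replicate 2 (1.02%). The means were 36237 ± 6437 in SMARCA4 cells and 29318 ± 11332 in empty vector cells (SD, n = 3 each), a log2 fold change of 0.37 (SE 0.34). The difference was thus close in size to its own standard error. As a share of each library's reads the groups overlapped as well, with 1.65%, 1.40% and 1.96% in the SMARCA4 libraries and 1.74%, 1.02% and 2.31% in the empty vector libraries. Scaled to a total of 1000000 reads per library (RPM), the means were 16678 ± 2801 RPM in SMARCA4 cells and 16926 ± 6459 RPM in empty vector cells (SD, n = 3 each), so these means stood in the other order. The mean log2 difference on that scale was 0.04, of the same sign as on the deposited scale. In each library miR-191-5p ranked between the 10th and the 17th most abundant miRNA.

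miR-425-5p, the main arm of the neighbouring hairpin, was higher in the SMARCA4 libraries on the deposited scale. Its normalized counts were 1046, 1309 and 1074 in SMARCA4 replicates 1, 2 and 3, against 756, 500 and 788 in empty vector replicates 1, 2 and 3. All 3 SMARCA4 values lay above all 3 empty vector values. The means were 1143 ± 144 in SMARCA4 cells and 681 ± 158 in empty vector cells (SD, n = 3 each), with a log2 fold change of 0.77 (SE 0.29), or 1.70-fold. In RPM the order was less clean, with 570, 426 and 593 in the SMARCA4 libraries and 455, 282 and 446 in the empty vector libraries. There SMARCA4 replicate 2 lay below 2 of the 3 empty vector libraries, and the log2 fold change was 0.44.

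miR-191-3p, the scarce arm of the miR-191 hairpin, showed the widest separation of the 4. It was read 0, 18 and 1 times in SMARCA4 replicates 1, 2 and 3, and 16, 20 and 20 times in empty vector replicates 1, 2 and 3. These reads correspond to 0, 7.60 and 2.36 normalized counts in the SMARCA4 libraries and to 30.2, 38.0 and 32.7 in the empty vector libraries. All 3 SMARCA4 values lay far below all 3 empty vector values, and the deepest library, SMARCA4 replicate 2, held most of the reads of its group. The means were 3.32 ± 3.89 in SMARCA4 cells and 33.6 ± 4.02 in empty vector cells (SD, n = 3 each). The fitted log2 fold change of −3.49 (SE 0.76) depends on the pseudocount, and it was −2.31 with a pseudocount of 5. Counted over the pooled reads, the rate was 2.17 RPM in SMARCA4 libraries (19 reads) and 19.3 RPM in empty vector libraries (56 reads), a ratio of 0.112 with an exact 95% interval of 0.0630 to 0.192. That interval covers counting error only, and 18 of the 19 reads came from SMARCA4 replicate 2. Without that library 1 read was left in the SMARCA4 group and the ratio was 0.0352 (0.000875 to 0.204). The 0 of SMARCA4 replicate 1 allows up to 4.27 RPM if taken as 3 reads, against 18.2, 21.4 and 18.5 RPM in empty vector replicates 1, 2 and 3. By the Wilson 95% interval, used for the arm shares further on, the same 0 allows up to 5.47 RPM.

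miR-425-3p, the scarce arm of miR-425, overlapped between the groups. It had 7.84, 24.5 and 18.9 normalized counts in SMARCA4 replicates 1, 2 and 3, from 3, 58 and 8 reads, against 41.5, 17.1 and 27.8 in empty vector replicates 1, 2 and 3, from 22, 9 and 17 reads. SMARCA4 replicates 2 and 3 both lay above empty vector replicate 2. The means were 17.1 ± 8.48 in SMARCA4 cells and 28.8 ± 12.2 in empty vector cells (SD, n = 3 each), a log2 fold change of −0.77 (SE 0.56). The pooled rate was 7.89 RPM in SMARCA4 libraries and 16.6 in empty vector libraries, a ratio of 0.476 (exact 95% interval 0.325 to 0.703, counting error only).

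**Figure D1:**
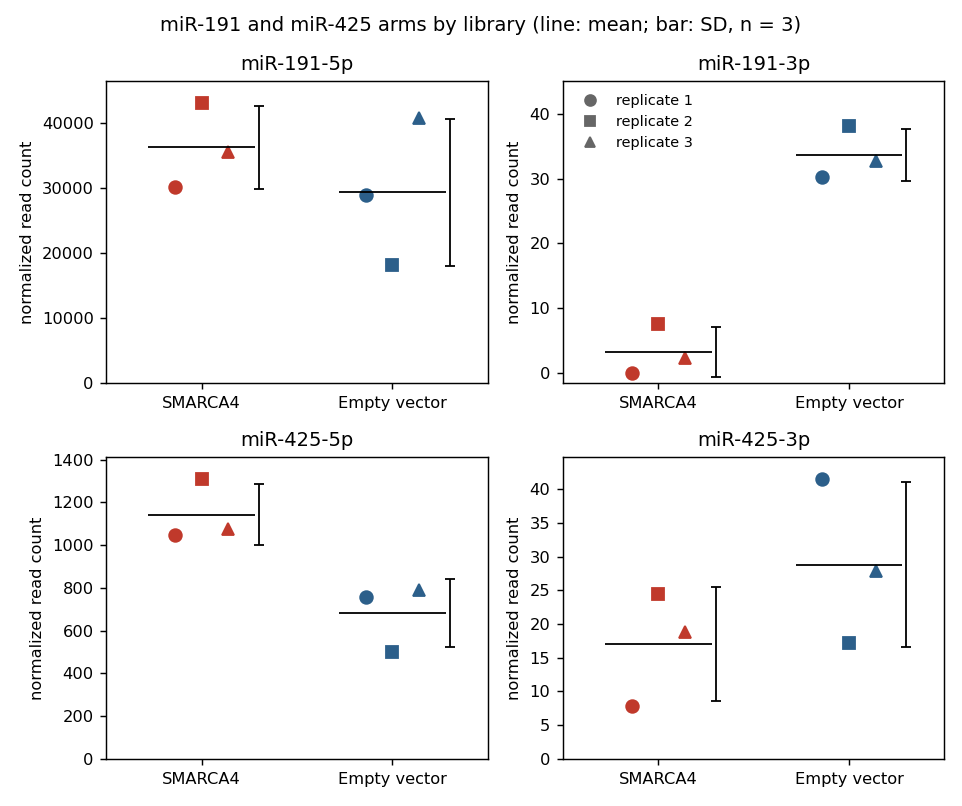
Normalized read count of each arm in each library, 1 panel per arm, with SMARCA4 libraries left of empty vector libraries. Points are libraries (shape gives the replicate), lines are group means and bars are ± SD (n = 3). The groups do not overlap for miR-425-5p (1046 to 1309 with SMARCA4, 500 to 788 with empty vector) and for miR-191-3p (0 to 7.60 and 30.2 to 38.0), and they overlap for the other arms.

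Over the 637 miRNAs tested with limma on log2(value + 1), 9 passed an adjusted p of 0.05, which is 1.41%, and 0 of the 4 members were among them. Before adjustment 2 of the 4 members had a p under 0.05, as had 144 (22.6%) of all 637. edgeR called 8 miRNAs (1.26%), 0 of them members, with 2 members and 153 of all miRNAs (24.0%) at an unadjusted p under 0.05. miR-191-3p was not called in 12 of 16 alternatives and was called in the other 4, where the share of all miRNAs called was 7.38% (DESeq2, 47 miRNAs), 6.44% (without SMARCA4 replicate 2, 41), 1.88% (libraries rescaled to the same total, 12) and 1.57% (pseudocount of 5, 10). The other 3 members were called in 0 of the 16. On the deposited scale the groups of 3 did not overlap for 2 of the 4 members, 1 higher and 1 lower with SMARCA4. The same held for 31.1% of all miRNAs tested, with 15.9% higher and 15.2% lower. Since the members were chosen with this contrast known, nothing is read from any of these counts. By size of the fitted change, miR-191-3p ranked 3rd of the 637 and the other members between 275th and 445th.

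The arms of 1 hairpin can be compared within a library, where the scaling factor cancels in shares of reads. On the log2(value + 1) scale used further on it does not fully cancel for a scarce arm, as 1 is added after scaling. In the miR-191 hairpin the 3p arm made up 0% of the reads of both arms in SMARCA4 replicate 1 (Wilson 95% interval up to 0.0332%), 0.0177% in replicate 2 (0.0112% to 0.0279%) and 0.00665% in replicate 3 (up to 0.0377%). In empty vector replicates 1, 2 and 3 it made up 0.104% (0.0640% to 0.169%), 0.209% (0.135% to 0.323%) and 0.0801% (0.0518% to 0.124%). Every SMARCA4 interval ended below every empty vector interval. For 1 read of miR-191-3p there were 5656 reads of miR-191-5p in SMARCA4 replicate 2, and 961, 477 and 1248 in the 3 empty vector libraries.

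The miR-425 hairpin leaned the same way from a less one-sided start. Its 3p arm held 0.744% of the reads in SMARCA4 replicate 1 (0.253% to 2.17%), 1.84% in replicate 2 (1.42% to 2.37%) and 1.73% in replicate 3 (0.878% to 3.37%). In the empty vector libraries it held 5.20% in replicate 1 (3.46% to 7.75%), 3.31% in replicate 2 (1.75% to 6.17%) and 3.41% in replicate 3 (2.14% to 5.39%). The shares themselves did not overlap between the groups, but several of the intervals did.

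**Figure D2:**
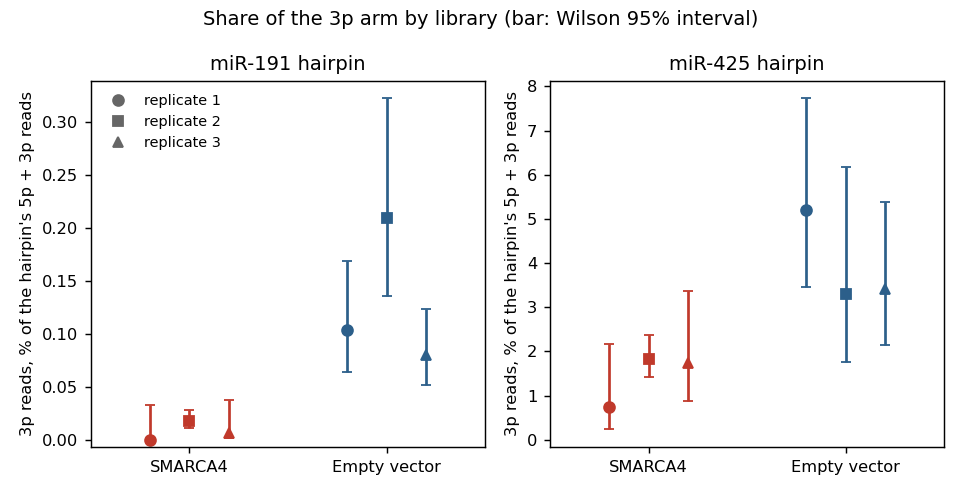
Share of 3p reads among the 5p and 3p reads of a hairpin, in percent, for miR-191 and miR-425, with SMARCA4 libraries left of empty vector libraries. Points are libraries (shape gives the replicate) and bars are Wilson 95% intervals, which cover counting error only. The miR-191 shares are at most 0.0177% with SMARCA4 and at least 0.0801% with empty vector, and the miR-425 shares at most 1.84% and at least 3.31%.

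On the log2(value + 1) scale the 5p to 3p ratio of miR-191 was 13.51 ± 1.30 in SMARCA4 cells and 9.65 ± 0.71 in empty vector cells (SD, n = 3 each), a difference of 3.86. That of miR-425 was 6.11 ± 0.68 and 4.57 ± 0.36 (SMARCA4 and empty vector, SD, n = 3 each), a difference of 1.53. A shift toward the more abundant arm was common in these libraries. Of the other 153 hairpins with both arms at a mean of at least 1, 98 moved toward their more abundant arm with SMARCA4, with a median difference of 0.58 and quartiles of −0.46 and 1.40. The groups did not overlap in the arm ratio for 50 of all 155 hairpins (32.3%), and for 39 (25.2%) they stood apart toward the more abundant arm, miR-191 and miR-425 included. At or above the difference of miR-191 there were 0 of the other 153 hairpins, and at or above that of miR-425 there were 32. The rank of miR-191 was 1st with a pseudocount of 1 or 0.5 and without SMARCA4 replicate 2, and 3rd with a pseudocount of 5. Its 3p arm had 0, 18 and 1 reads in SMARCA4 replicates 1, 2 and 3. Its difference and rank therefore rest on few reads and on the pseudocount. The ranking without SMARCA4 replicate 2 cannot secure the rank, as it leaves 1 read of that arm in the group. Among the 26 other hairpins with a dominant 5p arm and a scarce arm at a mean between 10 and 50, the median difference was 1.17, and 10 were at or above miR-425. The hairpin next below miR-191 was miR-221, which moved by 3.06 toward its abundant 3p arm and had at least 85 reads of its 5p arm in each library. Next after it, and next to miR-191 among those that moved toward the 5p arm, was miR-193a (2.99), whose 3p arm had 2, 0 and 2 reads in SMARCA4 replicates 1, 2 and 3, and 10, 114 and 6 in empty vector replicates 1, 2 and 3.

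**Figure D3:**
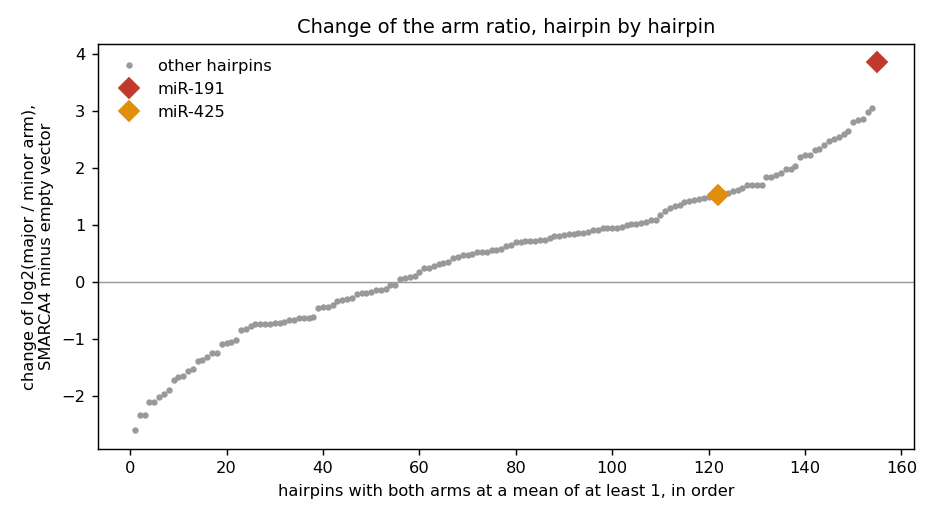
Change of the log2 ratio of the more abundant to the less abundant arm, SMARCA4 minus empty vector, for 155 hairpins in order of the change. Each grey point is a hairpin and diamonds mark miR-191 (3.86) and miR-425 (1.53). At a pseudocount of 1 miR-191 is at the top of the range. Of the other 153 hairpins, 32 lie at or above miR-425.

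The main arms of the neighbouring hairpins both dipped in empty vector replicate 2. Their ratio was lower in every SMARCA4 library than in every empty vector library. miR-191-5p was read 28.9, 32.9 and 33.0 times as often as miR-425-5p in SMARCA4 replicates 1, 2 and 3, and 38.3, 36.3 and 51.8 times as often in empty vector replicates 1, 2 and 3. The ratio averaged 31.6 ± 2.36 in SMARCA4 cells and 42.1 ± 8.41 in empty vector cells (SD, n = 3 each), a log2 difference of −0.40. Such separation was common, as the groups of 3 did not overlap for 31.1% of single miRNAs and 32.3% of arm ratios. No such share was computed over pairs of miRNAs, so nothing is read from the separation. Adapter ligation favours some miRNAs over others, so the ratio compares libraries and is not a ratio of molecules. In empty vector replicate 2 both arms lay furthest below their own means over the 6 libraries, by 0.80 each on the log2 scale. The dip was shared by at least miR-183-5p, which lay 0.85 below its own mean there. That miRNA was picked because its profile was the most like that of miR-191-5p. Its dip therefore cannot show how common such a dip was, and other miRNAs were not counted. In empty vector replicate 3 the arms parted, with miR-191-5p 0.37 above its mean and miR-425-5p 0.15 below.

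Likeness was measured as the root mean square difference of log2(value + 1) over the 6 libraries, after each miRNA was centred on its own mean, for the 208 miRNAs with a mean of at least 100. Between miR-191-5p and miR-425-5p it was 0.26, which made miR-425-5p the 10th closest of 207 miRNAs to miR-191-5p, and miR-191-5p the 15th closest to miR-425-5p. The median over all miRNAs was 0.59 from miR-191-5p and 0.62 from miR-425-5p. The profile closest to miR-191-5p was that of miR-183-5p, at 0.070, followed by miR-125b-1-3p (0.16) and miR-126-5p (0.20). Closest to miR-425-5p were miR-127-3p (0.14), miR-151a-3p (0.15) and miR-152-3p (0.16). Among 16 pairs of hairpins on 1 strand with at most 1000 bases between them, each represented by its more abundant arm where that arm has 1 locus in RefSeq and a mean of at least 100, the miR-191 and miR-425 pair was the 2nd most alike, after miR-23a-3p with miR-27a-3p (0.20). The median of the 16 pairs was 0.43. This comparison of close pairs was chosen after values were seen.

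**Figure D4:**
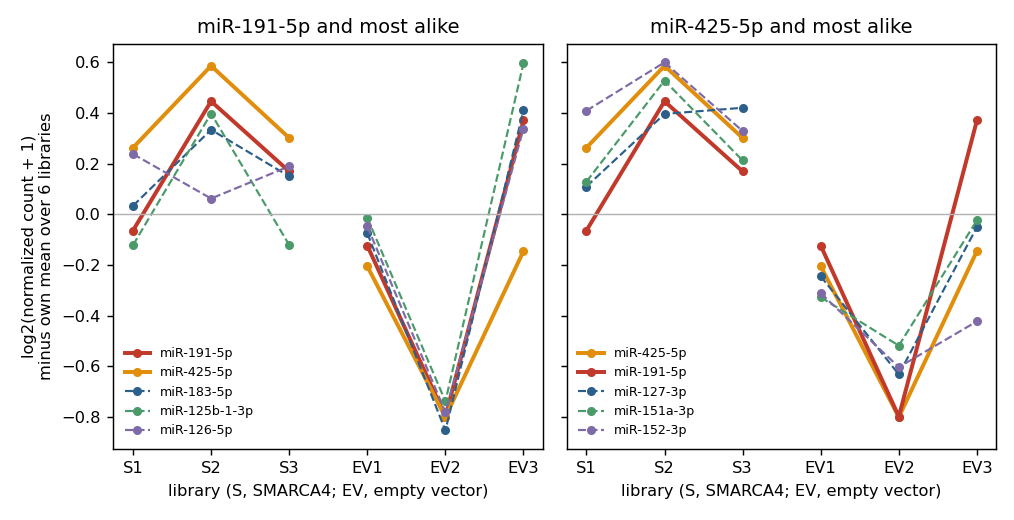
Level of miR-191-5p (left) and miR-425-5p (right) in each library, as log2(normalized count + 1) minus the miRNA's own mean over the 6 libraries, with the other main arm and the 3 most alike miRNAs. SMARCA4 libraries (S1 to S3) stand left of empty vector libraries (EV1 to EV3), and lines only join the points of 1 miRNA. Both arms dip together in empty vector replicate 2, and they part in empty vector replicate 3, where miR-191-5p lies 0.37 above its mean and miR-425-5p 0.15 below.

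As miR-191-5p serves as a reference in quantitative PCR, its spread between replicates was set beside that of 13 other miRNAs used in this way. Within groups its log2 values had an SD of 0.26 in SMARCA4 cells and 0.59 in empty vector cells. Pooled over both groups the SD was 0.45, rank 116 of 208 from the steadiest, where the median miRNA had 0.43. miR-425-5p was steadier, with an SD of 0.18 in SMARCA4 cells and 0.36 in empty vector cells, a pooled 0.28 and rank 52. The 13 reference miRNAs had pooled SDs from 0.13 to 0.76 with a median of 0.40, and 9 of them were steadier than miR-191-5p while 2 were steadier than miR-425-5p. Those 2 were miR-30e-5p (0.13) and miR-423-3p (0.14), which were named after their values were seen.

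Of these 13 reference miRNAs, 0 passed in the SMARCA4 comparison (limma), 3 had an unadjusted p under 0.05 (22.6% of all miRNAs did), and edgeR and DESeq2 also called 0. Their median log2 fold change was 0.31 beside −0.05 for all miRNAs tested, and 11 of the 13 were positive. The 2 sets differ in level, as the 13 had means from 319 to 14446 and the miRNAs tested a mean of at least 1. That median was between 0.25 and 0.47 with 1 library left out, the highest without empty vector replicate 3. The most abundant, miR-16-5p, was at 15063 ± 1645 in SMARCA4 cells and 13830 ± 3669 in empty vector cells (SD, n = 3 each). miR-26a-5p, the next, was at 14104 ± 1090 and 13886 ± 3599 (SMARCA4 and empty vector, SD, n = 3 each). Neither difference exceeded the spread between replicates. Without SMARCA4 replicate 2, 2 of the 13 passed, miR-186-5p and miR-30e-5p, when 41 of all 637 miRNAs (6.44%) passed. With libraries rescaled to the same total the median of the list was −0.02, when the median of all miRNAs moved by −0.26.

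Of the other miRNAs listed from the short arm of chromosome 3, 14 in all, 8 could be tested and 0 passed (limma). 1 had an unadjusted p under 0.05 (22.6% of all miRNAs did), and edgeR and DESeq2 also called 0. Their median log2 fold change was −0.39 beside −0.05 for all miRNAs tested, with 4 positive and 4 negative. miR-138-5p (−1.14), miR-26a-5p and miR-128-3p each have 2 loci, so their levels cannot be assigned to this region alone. Both arms of the let-7g, miR-138-1 and miR-26a-1 hairpins were among the 8, which are thus not 8 separate hairpins. With 1 library left out it was nearer to 0 each time, between −0.33 and −0.19, at −0.19 without SMARCA4 replicate 1 and −0.25 without SMARCA4 replicate 3. The nearest to MIR191, miR-4443 at 0.824 Mb, was scarce, with a mean of 2.36 normalized counts in SMARCA4 cells and listed at 0 in all 3 empty vector libraries. miR-26a-5p, encoded at 11.1 Mb and at another locus as well, was described above among the reference miRNAs. let-7g-5p, of the let-7 family that restrains growth genes such as RAS, lies at 3.25 Mb and was at 8022 ± 5924 in SMARCA4 cells and 4053 ± 356 in empty vector cells (SD, n = 3 each). Without SMARCA4 replicate 2, 1 of the 8 passed, miR-138-1-3p, when 41 of all 637 miRNAs (6.44%) passed.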

How the data were processed

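Per the labels, total RNA came from a mirVana extraction and went into TruSeq adapter-ligation libraries for small RNA. The submitters' processing notes name bcl2fastq 2.18.0.12 and GRCh38. The trimmer, aligner, counter and miRNA annotation were not given in the sources used here. The authors deposited a normalized signal per mature miRNA, named TMM, which is a read count times 1 factor per library. Whole reads were recovered for 100% of values (tolerance 1e-06 reads). Samples were grouped by title. The members and lists were chosen with earlier results of these data known.

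limma 3.58.1 (R 4.3.3; group only, mean-variance trend) was fitted on log2(value + 1) over miRNAs with a mean of at least 1, tested on simulated data, with Benjamini-Hochberg adjustment at 0.05. edgeR 4.0.16 and DESeq2 1.42.0 ran on recovered reads (237 adjusted p-values of DESeq2 were undefined). Named miRNAs were the members, the 2 most abundant and any called miRNAs of each list, the 3 most alike profiles, and the hairpins next to miR-191 in arm ratio. Also named were chromosome 3 miRNAs with another locus or with both arms tested. Chromosome 3 positions below 90000000 counted as the short arm. A count of 0 allows up to 3 reads. Intervals and that limit cover counting error only, as no molecular identifiers are mentioned.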

Additional observations from a re-analysis of the deposited data

How the results depend on the processing

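The number of miRNAs called was 9, and it was 47 by DESeq2 and between 0 and 41 when 1 library was left out. Leaving out SMARCA4 replicate 1, 2 or 3 gave 0, 41 and 1 calls, and leaving out empty vector replicate 1, 2 or 3 gave 0, 12 and 2. Both counts of 0 came from limma, with 119 and 103 miRNAs at an unadjusted p under 0.05 (SMARCA4 and empty vector replicate 1 left out). All 4 members kept the sign of their log2 fold change in every fit run. With 1 library left out it ranged from 0.06 to 0.64 for miR-191-5p, −4.23 to −2.68 for miR-191-3p, 0.56 to 0.89 for miR-425-5p and −1.08 to −0.32 for miR-425-3p. A pseudocount of 5 gave −2.31 for miR-191-3p and 2.68 for the miR-191 arm ratio, both as a larger pseudocount shrinks scarce values. miR-425-5p was at 0.44 with libraries rescaled to the same total and, in an alternative chosen after seeing the data, at 0.44 as a share of reads. That rescaling gave medians of −0.017 for the reference miRNAs and −0.71 for the chromosome 3 miRNAs. The spread of miR-425-5p was at percentile 14.7 from the steadiest when miRNAs with a mean of at least 10 were ranked. Leaving out 1 library, the miR-191 arm ratio differed by 3.17 to 4.47, that of miR-425 by 1.15 to 1.75, and the ratio of the 5p arms by −0.50 to −0.24.

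With the replicate number as a block, 13 miRNAs were called, and 0 of the members (2 at an unadjusted p under 0.05, as were 172, or 27.0%, of all miRNAs tested). Deviations of same-numbered libraries correlated at 0.073, 0.088 and 0.014 over the 637 miRNAs tested, which include many scarce ones. The numbers were not taken as pairs in the main fit. Over the 208 with a mean of at least 100 the correlations were 0.387, 0.302 and 0.108. There SMARCA4 replicate 3 correlated better with empty vector replicate 1 (0.317) than with its own number. The other different-numbered libraries correlated between −0.375 and 0.015. Whether the numbers pair was thus not settled. Depth limits the 3p arms most, since 3 reads equal between 1.27 and 7.84 normalized counts.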
